A study of Mus musculus with 15 samples.

Results

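The comparison set 3T3-L1 cells labelled as depleted of the mitochondrial protein mitoguardin 2 (MIGA2-KO) against wild-type (WT) cells, both harvested 6 days after adipogenic differentiation was started. It used 6 of the 15 RNA-seq libraries of the series, 3 of each group, taken by their titles, and 12279 of the 25700 counted genes, those that passed a filter on low counts. 3T3-L1 is a mouse embryonic fibroblast line, here bought from ATCC, whose confluent cells become lipid-filled adipocytes in a medium with dexamethasone, the phosphodiesterase inhibitor IBMX and insulin. Both groups were given the same differentiation medium, and both were otherwise untreated. Of the other 9 libraries, MIGA2-KO cells and WT cells at day 0 and cells labelled MIGA2-GFP at day 6, all entered the estimate of the spread, and the day 0 libraries are cited where named. The labels state neither how MIGA2 was depleted, nor whether the MIGA2-KO line was 1 clone, nor whether the replicates were separate cultures, so p-values speak of the spread among these libraries alone, which may be technical.

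MIGA2 sits in the outer mitochondrial membrane and tethers mitochondria to the endoplasmic reticulum, through VAP proteins, and to lipid droplets. In differentiating adipocytes these contacts are known to serve the synthesis of triacylglycerol from fatty acids made de novo. Adipocyte differentiation itself is driven by the transcription factors PPARG and CEBPA, which switch on the genes of lipid uptake, lipid synthesis, lipid storage and mitochondrial metabolism while the matrix genes of the fibroblast-like precursor are turned down.

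The library labelled MIGA2-KO replicate 1 stood apart and went against its label. Miga2 (chromosome 2, 30364233 to 30385521, plus strand, GRCm38) was at 926, 74.5 and 70.0 CPM (read counts scaled to TMM-adjusted library totals) in the MIGA2-KO libraries and at 145, 159 and 182 CPM in the WT libraries. Replicates 2 and 3 of MIGA2-KO lay below all WT libraries, and the library labelled replicate 1 lay above every other library. With all 3 MIGA2-KO libraries the log2 fold change of Miga2 was 1.14 ± 0.67 (standard error, edgeR quasi-likelihood test, Benjamini-Hochberg adjusted p = 0.157). With it left out the value was -1.16 (adjusted p = 1.67e-05). At day 0 Miga2 mRNA did not separate the lines, and was at 17.2, 21.4 and 22.5 CPM in MIGA2-KO cells and at 15.6, 17.8 and 13.6 CPM in WT cells (log2 fold change 0.38, adjusted p = 0.708). The labels do not say whether the depletion acts on the mRNA. WT replicate 1 stood apart as well: the chi-square per degree of freedom of its counts against the other WT libraries was 50.8 and 68.4, where that of the library labelled MIGA2-KO replicate 1 against the others of its group was 37.7 and 32.9. The same measure was 2.23 between the other MIGA2-KO libraries and 9.67 between the other WT libraries. Across genes, the deviation of WT replicate 1 from its group mean had a correlation of -0.45 with GC content and of 0.43 with log gene length. For WT replicates 2 and 3 the values were 0.17 and 0.37 with GC content, and -0.26 and -0.27 with log gene length. Deviations from a group mean offset each other, so they do not place this spread in a single WT library. In the MIGA2-KO libraries all such values lay between -0.093 and 0.093. Without WT replicate 1, 8018 genes were called in place of 7452.

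**Figure D1:**
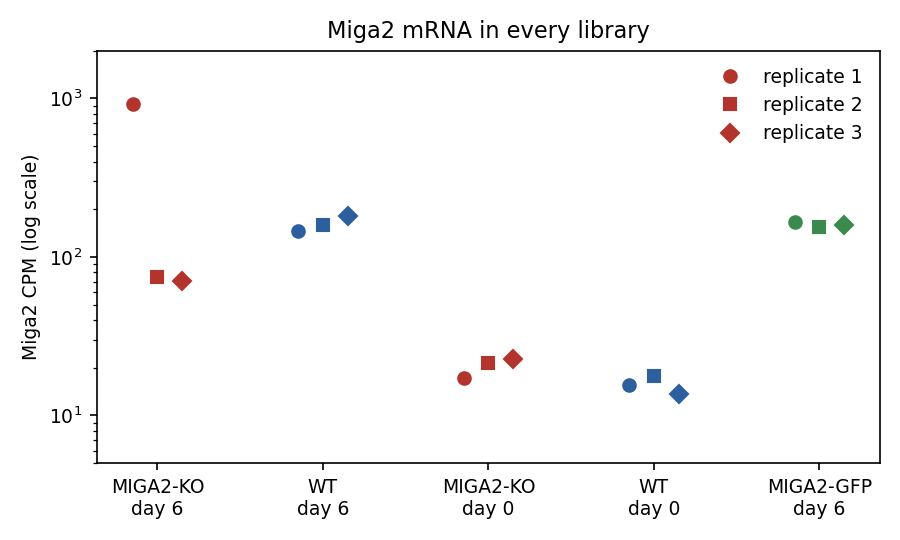
Miga2 level in CPM (log scale) in each library, by group, with replicates 1, 2 and 3 as circle, square and diamond. The library labelled MIGA2-KO day 6 replicate 1 stands at 926 CPM, the other MIGA2-KO day 6 libraries at 74.5 and 70.0 CPM, and the WT day 6 libraries between 145 and 182 CPM.

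The excess in the library labelled MIGA2-KO replicate 1 was not shared by the genes beside Miga2. Nup188, a nuclear pore gene that lies upstream, was at 51.1, 79.5 and 68.6 CPM in MIGA2-KO cells and at 60.5, 50.2 and 56.5 CPM in WT cells, with the library labelled replicate 1 lowest of the MIGA2-KO libraries. Dolk, Sh3glb2, Dolpp1, Crat and Ptpa, the other neighbours, had log2 fold changes of -0.75, -1.30, -0.79, -1.65 and -0.80, and all 5 passed the test as lower. Among 9680 genes with a mean of at least 5 CPM in MIGA2-KO cells, 121 were at least 2-fold above both other replicates in the library labelled replicate 1 and 20 were at least 2-fold below both. The same counts were 0 and 0 for replicate 2, and 1 and 3 for replicate 3. Its Miga2 level was 12.81 times the mean of the other MIGA2-KO libraries, the ratio that ranked 5 among those genes. Miga1, the paralogue that shares the tethering role, was at 3.48, 1.73 and 1.57 CPM in MIGA2-KO cells and at 1.72, 0.682 and 1.26 CPM in WT cells. Its groups overlapped, and its log2 fold change of 0.87 ± 0.40 did not pass the test (adjusted p = 0.0697). The highest Miga1 level was in the library labelled MIGA2-KO replicate 1, and without that library the log2 fold change was 0.43 (adjusted p = 0.358). It was 0.76 without replicate 1 of both groups (adjusted p = 0.136), and passed the test at 1.08 without MIGA2-KO replicate 3 and at 1.21 without WT replicate 1.

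Total counts ran from 10956827 to 12151824 in MIGA2-KO libraries and from 12139151 to 12355905 in WT libraries. Of the 12279 genes, 3581 (29.2%) were higher and 3871 (31.5%) lower in MIGA2-KO cells at an adjusted p under 0.05, and 60.7% in all were called. With the 6 libraries fitted alone 55.1% were called. The median log2 fold change over all genes was -0.01. At least 2-fold differences numbered 1518 higher and 1783 lower, and at least 4-fold differences 306 higher and 527 lower. Without the library labelled MIGA2-KO replicate 1, 3591 genes (28.8%) were higher and 3852 (30.9%) lower, 59.6% in all, and 3393 of the higher and 3568 of the lower genes were called in both fits. That library tended towards WT values in both directions. Of the 3871 genes called lower it was the highest of the MIGA2-KO libraries for 2393, and of the 3581 genes called higher it was the lowest for 2493. With so large a share of genes called, a share of a gene list near 29.2% higher or 31.5% lower is no more than that of genes at large. In 6959 of the 7452 genes called, the MIGA2-KO and WT libraries did not overlap, so a lack of overlap sets no called gene apart.

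**Figure D2:**
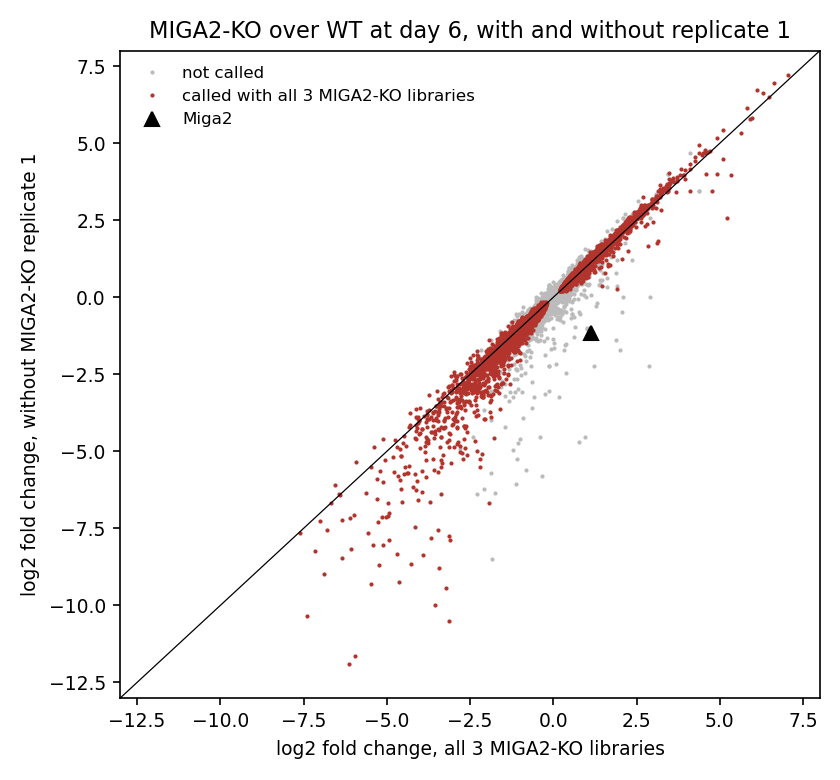
Log2 fold change of MIGA2-KO over WT at day 6 for each gene tested, with all 3 MIGA2-KO libraries (x axis) and without the library labelled MIGA2-KO replicate 1 (y axis). Genes lie along the diagonal, many of the strongly lower ones below it, and Miga2 stands at 1.14 on the x axis and at -1.16 on the y axis.

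Among the genes that stood furthest above WT in MIGA2-KO cells at day 6 were a steroid-metabolising enzyme, interferon-inducible GTPases and a chemokine. Among those furthest below WT were secreted plasma-type proteins and enzymes of mature adipocytes. The genes were the 10 called with the largest change in each direction among those at 5 CPM or more. Akr1c14, a hydroxysteroid dehydrogenase (chromosome 13, 4049011 to 4090688, plus strand), was at 77.4, 105 and 114 CPM in MIGA2-KO cells and at 6.24, 4.39 and 2.72 CPM in WT cells, a log2 fold change of 4.46 ± 0.27 (adjusted p = 1.84e-08). Gbp7, a guanylate-binding protein (chromosome 3, 142530342 to 142550149, plus strand), was at 7.48, 12.7 and 12.5 CPM in MIGA2-KO cells and at 1.45, 0.195 and 0.194 CPM in WT cells, and its log2 fold change was 4.09 ± 0.58. Its neighbour Gbp3 (chromosome 3, 142560026 to 142573209, plus strand) was at 4.61, 6.59 and 5.40 CPM in MIGA2-KO cells and at 0.723, 0.585 and 0 CPM in WT cells. WT replicate 1 carried more Gbp7 than the other WT libraries, and without it the log2 fold changes of Gbp7 and Gbp3 were 5.75 and 4.21. Cxcl5, a neutrophil-attracting chemokine (chromosome 5, 90759360 to 90761624, plus strand), was at 7.65, 5.69 and 6.10 CPM in MIGA2-KO cells and at 0.452, 0.390 and 0.388 CPM in WT cells (log2 fold change 3.95 ± 0.24). In MIGA2-KO cells at day 0, Akr1c14, Gbp7, Gbp3 and Cxcl5 averaged 226, 22.4, 50.9 and 33.5 CPM, more than at day 6. Mbnl3 was also lower at day 6 than at day 0, and the other higher genes were not. At day 0 Akr1c14, Gbp7, Gbp3 and Mbnl3 were already called higher than in WT cells (log2 fold changes 1.90, 1.54, 2.13 and 1.77), and the other higher genes were not.

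The other genes of that group followed the same order. Atp7a, a copper-transporting ATPase on chromosome X, was at 54.0, 80.7 and 89.1 CPM in MIGA2-KO cells and at 12.2, 1.95 and 2.81 CPM in WT cells. WT replicate 1 again lay nearest to the MIGA2-KO libraries, and the log2 fold change of 3.70 ± 0.73 (adjusted p = 0.000596) was 4.97 without it. Ulbp1, a ligand of the natural killer cell receptor NKG2D, was at 14.8, 19.5 and 22.9 CPM in MIGA2-KO cells and at 2.62, 0.780 and 0.582 CPM in WT cells (3.81 ± 0.45, and 4.80 without WT replicate 1). Folh1, a glutamate carboxypeptidase, was at 28.2, 41.1 and 46.6 CPM in MIGA2-KO cells and at 4.25, 3.31 and 2.52 CPM in WT cells. Thrb, a thyroid hormone receptor, and Mbnl3, a splicing regulator, rose by 3.94 ± 0.36 and 3.57 ± 0.47 on the log2 scale. The predicted gene Gm49358 rose by 3.89 ± 0.62, and by 6.96 without WT replicate 1, since the other WT libraries held 0.0975 and 0 CPM.

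Among the 10 genes with the largest decreases, Hp, Cyp2e1 and Aldh1l1 had the highest levels in WT cells, and the others averaged 7.69 to 33.9 CPM there. Aldh1l1, the enzyme that oxidises 10-formyltetrahydrofolate (chromosome 6, 90486427 to 90600203, plus strand), was at 3.39, 0.906 and 0.610 CPM in MIGA2-KO cells and at 191, 242 and 266 CPM in WT cells, a log2 fold change of -7.15 ± 0.36 (adjusted p = 5.97e-09). Hp, the haemoglobin-binding haptoglobin (chromosome 8, 109575128 to 109579172, minus strand), was at 122, 40.9 and 37.4 CPM in MIGA2-KO cells and at 5310, 7884 and 9166 CPM in WT cells (-6.80 ± 0.44). Cyp2e1, a cytochrome P450 of mature adipocytes, was at 12.6, 2.88 and 3.14 CPM in MIGA2-KO cells and at 409, 418 and 466 CPM in WT cells (-6.12 ± 0.46). In these 3 genes the library labelled MIGA2-KO replicate 1 was the highest of its group yet far below every WT library, and without it their log2 fold changes were -8.23, -7.57 and -7.15. Cyp2b10, another cytochrome P450, was at 0.348, 0.247 and 0.174 CPM in MIGA2-KO cells and at 31.0, 32.3 and 38.3 CPM in WT cells (-7.00 ± 0.24). Retnla, a secreted resistin-like protein, fell by 6.43 ± 0.38 on the log2 scale.

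Some of these genes were nearly silent in MIGA2-KO cells. Csn2, a casein gene (chromosome 5, 87692624 to 87699630, minus strand), had 2 counts over the MIGA2-KO libraries, both in the library labelled replicate 1, and 352 over the WT libraries, and WT was 165 times higher (95% exact interval of the ratio, counting error only, 45.2 to 1360). Adora1, the antilipolytic adenosine receptor, had 3 counts in MIGA2-KO cells and 242 in WT cells, with WT 75.4 times higher (25.5 to 368), and its log2 fold change of -6.35 was -7.23 without the library labelled MIGA2-KO replicate 1. Elovl3, a fatty acid elongase, was at 1.30, 0 and 0 CPM in MIGA2-KO cells and at 28.2, 28.1 and 25.8 CPM in WT cells, so what was counted in MIGA2-KO cells came from the library labelled replicate 1. The same held for Camp, which encodes cathelicidin, at 1.39, 0 and 0 CPM in MIGA2-KO cells and 22.3, 38.8 and 36.8 CPM in WT cells. Ppp1r1b, a phosphatase inhibitor, fell by 5.98 ± 0.46 on the log2 scale, and by 7.07 without the library labelled MIGA2-KO replicate 1. All 20 genes kept their direction and call under each of the 18 alternative settings tried. They were picked for large called changes in these same libraries, so nothing is read from that count.

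**Figure D3:**
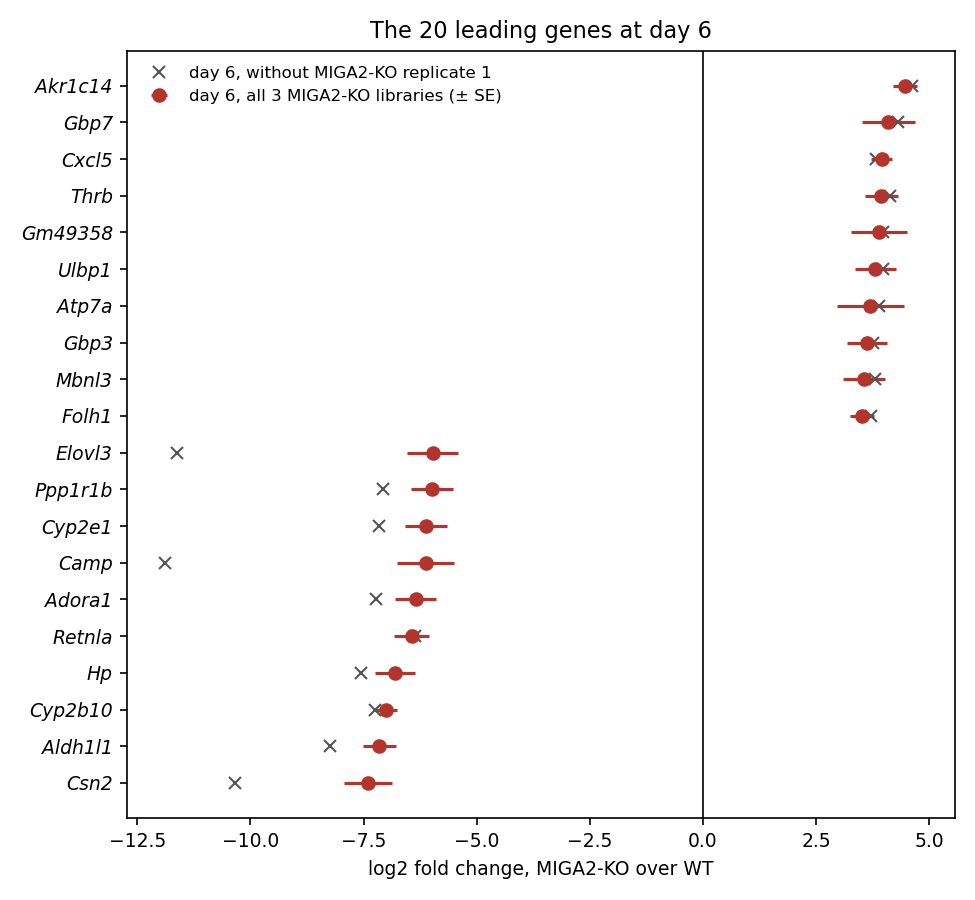
Log2 fold change of MIGA2-KO over WT at day 6 for the 20 genes with the largest called change, with all 3 MIGA2-KO libraries (filled points, bars are the standard error) and without the library labelled MIGA2-KO replicate 1 (crosses). For Elovl3, Camp and Csn2 the crosses rest on MIGA2-KO libraries without a count and their position depends on the prior count of the fit, and for the 10 higher genes cross and point lie close together.

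MIGA2-KO cells had adipocyte marker mRNAs at lower levels than WT cells, but they were not free of them, so the label of adipocytes held with a lower content. Of 17 tested markers and adipokines, 0 were higher and 14 lower, with a median log2 fold change of -2.18. Their summed level was 16700, 10440 and 10346 CPM in MIGA2-KO cells and 47706, 62651 and 64151 CPM in WT cells. Adipoq, the hormone adiponectin, was at 2031, 1482 and 1501 CPM in MIGA2-KO cells and at 5824, 7016 and 7422 CPM in WT cells (log2 fold change -2.01 ± 0.18, adjusted p = 5.84e-07). Fabp4, the intracellular fatty acid carrier of adipocytes, was at 4488, 2845 and 2786 CPM in MIGA2-KO cells and at 13401, 18710 and 15077 CPM in WT cells (-2.22 ± 0.22). Neither gene overlapped between the groups. In bulk RNA, fewer adipocytes and less of these mRNAs per adipocyte cannot be told apart.

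Agt, Cfd and Retn, which encode secreted products of fat cells, were lower in MIGA2-KO cells. Agt, angiotensinogen, was at 1351, 1361 and 1235 CPM in MIGA2-KO cells and at 6327, 9310 and 10284 CPM in WT cells (-2.72 ± 0.21). Cfd, the complement factor adipsin, was at 1697, 816 and 752 CPM in MIGA2-KO cells and at 5302, 9901 and 13649 CPM in WT cells. Retn, resistin, was at 71.5, 21.1 and 19.7 CPM in MIGA2-KO cells and at 901, 1481 and 1533 CPM in WT cells, a log2 fold change of -5.12 ± 0.49, and -5.99 without the library labelled MIGA2-KO replicate 1. For all 3 genes the groups were separate, with the library labelled MIGA2-KO replicate 1 nearest to WT for Cfd and Retn. Slc2a4, the insulin-responsive glucose transporter GLUT4, was at 95.0, 17.1 and 15.9 CPM in MIGA2-KO cells and at 190, 216 and 223 CPM in WT cells (-2.30 ± 0.56, and -3.65 without that library). Aqp7, a glycerol channel, and Apln, the peptide apelin, did not pass the test with all libraries (-0.72 and -0.16) and passed it as lower without it (-1.30 and -0.58). Car3, a carbonic anhydrase, did not pass in either fit.

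The regulators of adipogenesis did not move as one. Of 19 tested, 7 were higher and 7 lower, with a median of -0.15. Cebpa was at 40.9, 25.7 and 25.3 CPM in MIGA2-KO cells and at 192, 215 and 221 CPM in WT cells (log2 fold change -2.77 ± 0.20, adjusted p = 7.91e-08). Pparg, the nuclear receptor that drives adipocyte genes, was at 162, 154 and 158 CPM in MIGA2-KO cells and at 294, 296 and 295 CPM in WT cells (-0.90 ± 0.08, adjusted p = 6.86e-07). Replicates of Pparg were close to each other in both groups, and its MIGA2-KO libraries, the one labelled replicate 1 included, lay together. Klf15, a factor that acts late in differentiation, was at 6.43, 2.47 and 2.87 CPM in MIGA2-KO cells and at 32.3, 43.5 and 55.0 CPM in WT cells (-3.47 ± 0.31). Nr1h3, the oxysterol receptor LXR alpha, fell by 1.76 ± 0.17 on the log2 scale.

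The early factors Cebpb and Cebpd, which act upstream of Pparg, did not pass the test. Cebpb was at 53.6, 76.1 and 63.4 CPM in MIGA2-KO cells and at 43.2, 69.2 and 110 CPM in WT cells, and the groups overlapped. Several factors rose. Nr3c1, the glucocorticoid receptor, was at 157, 158 and 167 CPM in MIGA2-KO cells and at 80.9, 43.9 and 47.3 CPM in WT cells (1.49 ± 0.25). Ebf2, a factor of committed precursors and brown adipocytes, rose by 1.56 ± 0.31 on the log2 scale, Klf4 by 1.03 ± 0.21, and Rxra, the partner of PPARG, by 0.68 ± 0.14. At day 0, before the medium was added, Cebpa was already lower in MIGA2-KO cells (-3.40, adjusted p = 8.33e-06) and Pparg was higher (0.87, adjusted p = 1.06e-05).

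**Figure D4:**
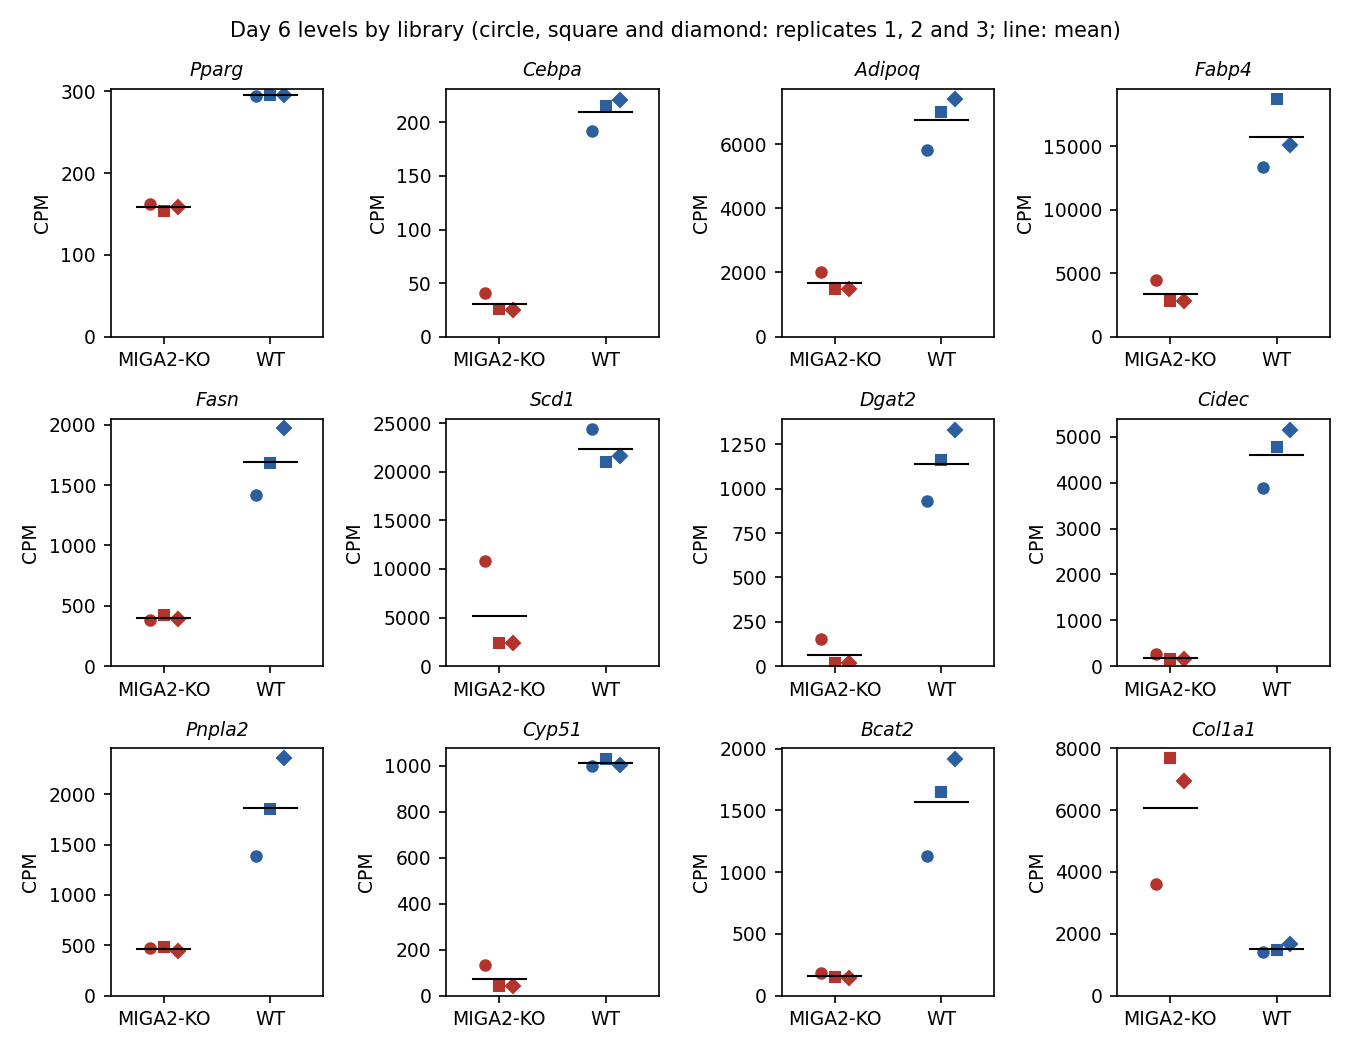
Levels in CPM at day 6 in each MIGA2-KO and WT library for 12 genes of adipocyte identity, lipid metabolism and matrix (replicates 1, 2 and 3 as circle, square and diamond, lines at the group means). Pparg stands at 154 to 162 CPM in MIGA2-KO and 294 to 296 CPM in WT libraries, Col1a1 is higher in the MIGA2-KO libraries, and for Scd1 and Dgat2 the library labelled MIGA2-KO replicate 1 lies between the others of its group and WT.

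Genes of fatty acid uptake and activation fell in MIGA2-KO cells, 11 of 15 tested against 2 that rose, with a median of -1.76. Lpl, the lipase that frees fatty acids from lipoproteins, was at 5705, 3574 and 3707 CPM in MIGA2-KO cells and at 12329, 13027 and 12560 CPM in WT cells (-1.55 ± 0.15). Acsl1, the main acyl-CoA synthetase of fat, was at 552, 301 and 315 CPM in MIGA2-KO cells and at 3559, 2494 and 2793 CPM in WT cells (-2.92 ± 0.24). The synthetase Acsl4, which prefers arachidonic acid, went the other way, at 46.4, 50.9 and 54.2 CPM in MIGA2-KO cells and 20.1, 14.9 and 13.3 CPM in WT cells (1.65 ± 0.21). None of the 3 overlapped between groups. The acyl-CoA binding protein Dbi and the carrier Fabp5 fell by 2.68 ± 0.23 and 2.13 ± 0.14 on the log2 scale, and Dbi was at -1.64 with offsets for GC content and length.

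Of 22 genes of de novo lipogenesis, which turns citrate into fatty acids, 17 fell and 2 rose, with a median of -1.05. Fasn, fatty acid synthase, was at 385, 427 and 393 CPM in MIGA2-KO cells and at 1421, 1686 and 1973 CPM in WT cells (log2 fold change -2.08 ± 0.13, adjusted p = 1.96e-08). Pcx, pyruvate carboxylase, which feeds the export of citrate, was at 740, 866 and 793 CPM in MIGA2-KO cells and at 2425, 2907 and 3383 CPM in WT cells (-1.86 ± 0.12). For both, the library labelled MIGA2-KO replicate 1 lay with the others of its group. For Thrsp, a lipogenic regulator, at 73.7, 22.0 and 18.1 CPM in MIGA2-KO cells and 752, 1134 and 1231 CPM in WT cells, it lay above them, and the log2 fold change of -4.78 ± 0.43 was -5.69 without it. The same held for the stearoyl-CoA desaturase Scd1, at 10782, 2345 and 2369 CPM in MIGA2-KO cells and 24383, 21008 and 21677 CPM in WT cells (-2.11 ± 0.43, and -3.24 without it). Acaca and Acly, which make malonyl-CoA and cytosolic acetyl-CoA, fell by 1.59 ± 0.17 and 1.24 ± 0.12 on the log2 scale, and Pgd, an NADPH source, by 1.18 ± 0.11. The 2 genes that rose act on chain length and desaturation: Elovl6 by 1.11 ± 0.14 and Fads2 by 1.53 ± 0.17.

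In the synthesis of triacylglycerol, 13 of 18 genes fell and 1 rose, with a median of -1.12. The final acyltransferase Dgat2 was at 153, 16.0 and 15.6 CPM in MIGA2-KO cells and at 933, 1164 and 1331 CPM in WT cells (-4.22 ± 0.66, -6.17 with the library labelled MIGA2-KO replicate 1 left out). The other final acyltransferase, Dgat1, was at 331, 248 and 233 CPM in MIGA2-KO cells and at 518, 698 and 740 CPM in WT cells (-1.27 ± 0.16). That library held far more Dgat2 than the others of its group and still lay below every WT library. Agpat2, which acylates lysophosphatidic acid, was at 391, 443 and 410 CPM in MIGA2-KO cells and at 1134, 1518 and 1669 CPM in WT cells (-1.80 ± 0.16). Gpat4 and Agpat4 fell by 1.85 ± 0.17 and 1.08 ± 0.14 on the log2 scale. Gpam, the mitochondrial glycerol-3-phosphate acyltransferase, did not pass the test, at 43.3, 35.8 and 35.8 CPM in MIGA2-KO cells and 37.1, 10.1 and 14.7 CPM in WT cells. The 1 gene called higher, Lpin2 (0.44), did not pass without the library labelled MIGA2-KO replicate 1 (0.35). Without WT replicate 1 the list held 3 higher genes, and 0 without MIGA2-KO replicate 2, WT replicate 2 or WT replicate 3.

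Of 17 lipid droplet genes, 11 fell and 3 rose, with a median of -0.90. Cidec, which drives droplet fusion in white fat, was at 268, 152 and 146 CPM in MIGA2-KO cells and at 3881, 4779 and 5148 CPM in WT cells (log2 fold change -4.61 ± 0.24, adjusted p = 2.34e-08). Plin1, the coat protein that gates lipolysis in adipocytes, was at 372, 185 and 171 CPM in MIGA2-KO cells and at 528, 501 and 642 CPM in WT cells (-1.20 ± 0.25). Bscl2, which encodes seipin, the protein at sites of droplet formation, was at 29.7, 2.97 and 0.784 CPM in MIGA2-KO cells and at 45.8, 78.4 and 96.7 CPM in WT cells (-2.72 ± 0.71, and -5.26 without the library labelled MIGA2-KO replicate 1). All 3 were separate between groups. Plin3 and Plin4, coat proteins of lipid droplets of which Plin4 is known mainly from adipocytes, and Rab18, a trafficking GTPase found on droplets, rose by 0.71 ± 0.12, 0.49 ± 0.10 and 0.72 ± 0.14 on the log2 scale. Fitm2, needed for droplet budding, fell by 0.89 ± 0.09, Hilpda by 1.54 ± 0.24 and Aup1 by 1.08 ± 0.18.

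The genes of lipolysis fell with those of storage, 12 of 15 against 1 that rose, with a median of -1.78. Pnpla2, the triacylglycerol lipase ATGL, was at 473, 479 and 443 CPM in MIGA2-KO cells and at 1384, 1852 and 2364 CPM in WT cells (-2.01 ± 0.18). Its activator Abhd5 was at 166, 199 and 197 CPM in MIGA2-KO cells and at 428, 481 and 465 CPM in WT cells (-1.29 ± 0.09), and its inhibitor G0s2 was at 105, 17.5 and 15.8 CPM in MIGA2-KO cells and at 295, 487 and 683 CPM in WT cells (-3.41 ± 0.62, and -4.86 without the library labelled MIGA2-KO replicate 1). The lipase, its activator and its inhibitor were all lower without overlap. Lipe, hormone-sensitive lipase, fell by 0.81 ± 0.18 on the log2 scale, Mgll, monoglyceride lipase, by 3.20 ± 0.28, and Prkaca, the catalytic subunit of protein kinase A, by 1.56 ± 0.11. Hcar1, the lactate receptor that restrains lipolysis, was at 23.7, 4.61 and 5.83 CPM in MIGA2-KO cells and at 38.0, 36.8 and 38.7 CPM in WT cells (-1.73 ± 0.47, and -2.85 without that library). Acot11, the 1 gene called higher, was below 1 CPM in all 6 libraries, overlapped between groups and did not pass without MIGA2-KO replicate 2 or WT replicate 3.

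**Figure D5:**
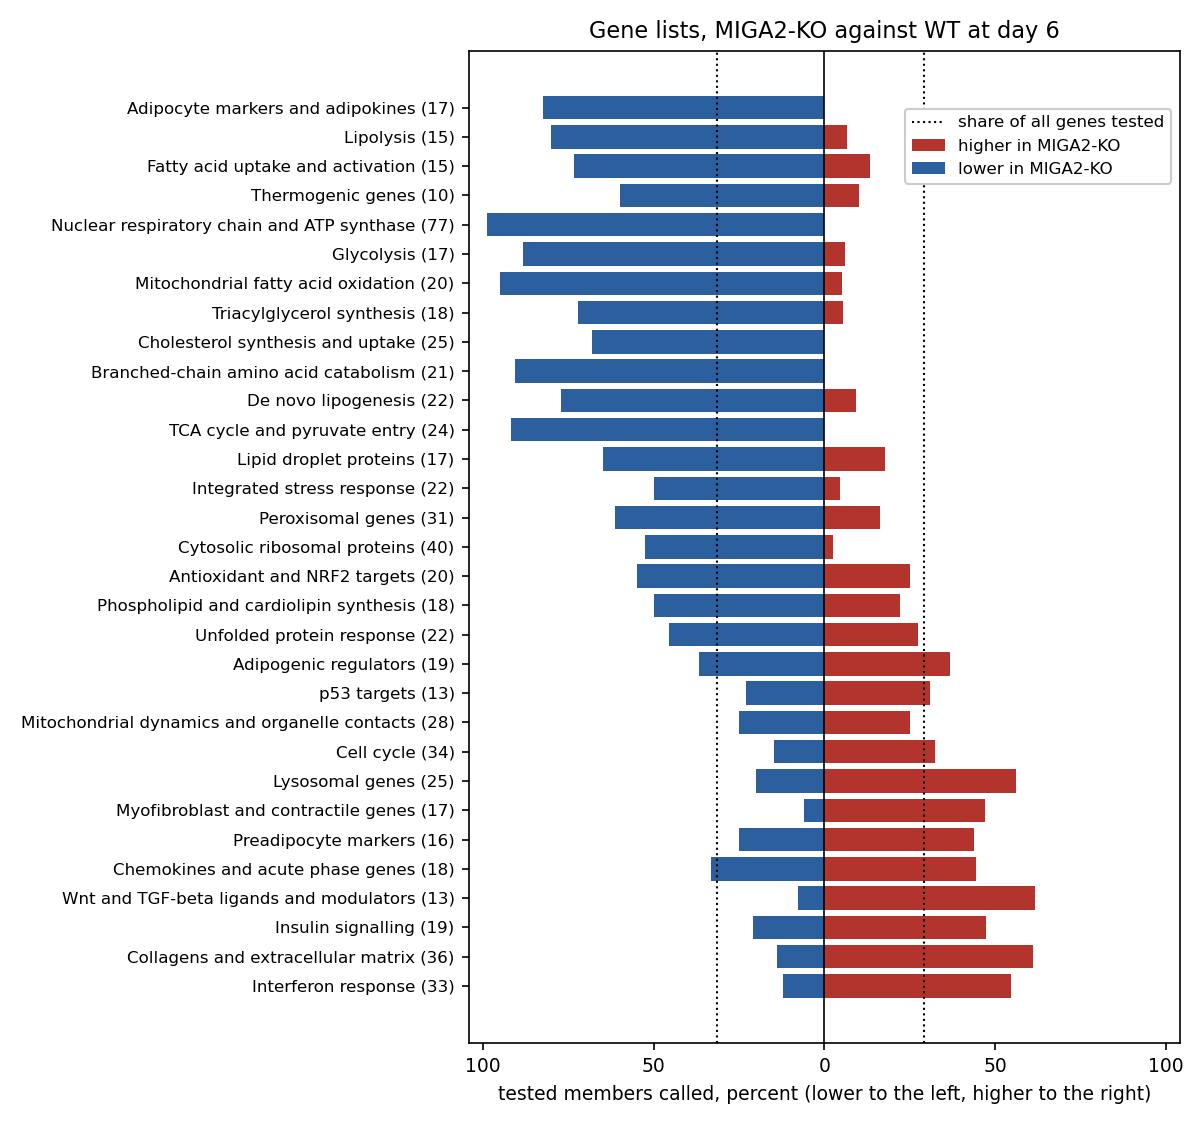
Percent of the tested genes of each list that were called lower (left) or higher (right) in MIGA2-KO against WT cells at day 6, lists ordered by their median log2 fold change, the number of genes tested in brackets. Dotted lines mark the shares over all genes tested, 31.5% lower and 29.2% higher, which lists of lipid and mitochondrial metabolism pass on the left and matrix and interferon lists on the right.

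Of 25 genes of cholesterol synthesis and uptake, 17 fell and 0 rose at day 6, with a median of -1.12. These genes are known to be switched on together by SREBP2, whose promoter sites are often accompanied by a CCAAT box, the motif bound by NF-Y. Cyp51, the lanosterol demethylase, was at 135, 41.2 and 41.5 CPM in MIGA2-KO cells and at 998, 1027 and 1005 CPM in WT cells (log2 fold change -3.80 ± 0.35, -4.60 with the library labelled MIGA2-KO replicate 1 left out). Nsdhl, which acts after it in the pathway, was at 62.9, 60.5 and 65.1 CPM in MIGA2-KO cells and at 296, 269 and 235 CPM in WT cells (-2.09 ± 0.10, adjusted p = 4.71e-09). Acat2, Pmvk and Mvd, enzymes of the early pathway, fell by 2.30 ± 0.16, 3.03 ± 0.22 and 2.30 ± 0.19 on the log2 scale. Hmgcs1, an early enzyme of the pathway, and Srebf2, which encodes SREBP2, did not pass in either direction (-0.03 and 0.06). Without WT replicate 1 or WT replicate 3, 1 gene of the list was higher. At day 0 the same list held 11 genes that were higher and 1 that was lower in MIGA2-KO cells, where 16.1% of all genes were called higher and 17.7% lower. The day 0 counts rest on WT day 0 libraries that differed among themselves. The deviations of replicates 1 and 3 had correlations of 0.375 and -0.54 with GC content. Those with log gene length were -0.56 and 0.47. No fit left out a day 0 library.

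The promoter windows of the cholesterol gene with the largest decrease and of the one with the lowest adjusted p are shown because the list moved together. Each runs from 250 bases before to 50 bases after the start of the gene in the RefSeq annotation of GRCm38.p6, 5′ to 3′ on the strand of the gene, and capitals mark the letters CCAAT, read as ATTGG where the match was on the other strand. Cyp51 lies at chr5:4104648-4104947 on the minus strand and Nsdhl at chrX:72918271-72918570 on the plus strand.
Cyp51: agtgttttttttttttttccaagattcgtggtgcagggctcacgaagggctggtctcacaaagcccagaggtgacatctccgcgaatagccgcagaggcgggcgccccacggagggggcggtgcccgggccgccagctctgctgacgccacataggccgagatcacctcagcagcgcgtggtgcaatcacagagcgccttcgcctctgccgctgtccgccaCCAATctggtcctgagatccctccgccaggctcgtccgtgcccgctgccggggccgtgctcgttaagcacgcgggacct
Nsdhl: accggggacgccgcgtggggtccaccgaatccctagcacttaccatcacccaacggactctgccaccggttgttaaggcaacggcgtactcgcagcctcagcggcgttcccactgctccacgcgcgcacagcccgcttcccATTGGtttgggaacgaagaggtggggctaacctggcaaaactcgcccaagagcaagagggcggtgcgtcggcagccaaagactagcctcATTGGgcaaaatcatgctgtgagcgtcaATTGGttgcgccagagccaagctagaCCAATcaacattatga
The window of Cyp51 held 1 match and that of Nsdhl held 4. CCAAT on either strand, in any window of a gene, was found in 16 of 18 cholesterol genes with a window (88.9%), against 11096 of 27025 genes with a window (41.1%). In the list of interferon-response genes 9 of 27 (33.3%) held it. A match is a description of the sequence and shows no binding.

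Mitochondrial oxidation genes were among the lists with the largest share of lower members. Of 20 genes of fatty acid oxidation, 19 fell and 1 rose, with a median of -1.30. Acadm, the medium-chain acyl-CoA dehydrogenase, was at 257, 242 and 237 CPM in MIGA2-KO cells and at 790, 740 and 770 CPM in WT cells (-1.64 ± 0.08, adjusted p = 5.97e-09). Cpt2, the inner-membrane carnitine palmitoyltransferase, was at 103, 95.7 and 91.0 CPM in MIGA2-KO cells and at 266, 324 and 331 CPM in WT cells (-1.67 ± 0.13). The outer-membrane enzyme that controls entry, Cpt1a, was the 1 gene that rose, at 83.4, 107 and 103 CPM in MIGA2-KO cells and 42.6, 32.9 and 26.1 CPM in WT cells (1.53 ± 0.18). In none of the 3 did the groups overlap, and the library labelled MIGA2-KO replicate 1 lay close to the others of its group in Acadm and Cpt2. Echs1 and Decr1 fell by 1.36 ± 0.10 and 1.63 ± 0.13 on the log2 scale.

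In the TCA cycle and pyruvate entry, 22 of 24 genes fell and 0 rose, with a median of -0.94. The mitochondrial pyruvate carrier Mpc1 was at 19.9, 18.2 and 16.8 CPM in MIGA2-KO cells and at 59.1, 60.3 and 65.6 CPM in WT cells (-1.75 ± 0.11, adjusted p = 3.21e-08). Fh1, fumarase, was at 121, 128 and 130 CPM in MIGA2-KO cells and at 291, 331 and 326 CPM in WT cells (-1.32 ± 0.11). The replicates of each group lay close together for both. Pdhx fell by 1.00 ± 0.09 on the log2 scale, whereas Cs, citrate synthase, fell by 0.35 ± 0.08. Suclg2 and Idh2 did not pass the test (-0.25 and 0.08).

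Nuclear-encoded subunits of the oxidative phosphorylation complexes were lower in 76 of 77 cases, with 0 higher and a median of -1.61. Their summed level was 14291, 12506 and 12482 CPM in MIGA2-KO cells and 26040, 38847 and 40233 CPM in WT cells. WT replicate 1 lay lowest of its group but above all MIGA2-KO libraries, and over all alternative settings the fewest members called lower was 72. Cycs, cytochrome c, was at 66.0, 40.5 and 41.1 CPM in MIGA2-KO cells and at 205, 230 and 208 CPM in WT cells (-2.12 ± 0.17, adjusted p = 2.05e-07). Cox7b, a subunit of complex IV, was at 171, 153 and 160 CPM in MIGA2-KO cells and at 580, 816 and 695 CPM in WT cells (-2.11 ± 0.18). The ATP synthase subunit Atp5a1 fell by 0.99 ± 0.10 on the log2 scale. The 1 gene not called was Atp5g2, a c subunit (0.03 ± 0.16), named after its value was seen.

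The mRNAs encoded in the mitochondrial genome, which code for core subunits of the same complexes, differed less uniformly. Of 8 tested, 3 fell and 0 rose, with a median of -0.54. mt-Cytb, the cytochrome b of complex III, was at 15643, 10041 and 10010 CPM in MIGA2-KO cells and at 37788, 31373 and 24778 CPM in WT cells (-1.40 ± 0.18). mt-Co1, the catalytic subunit of complex IV, was at 26219, 26880 and 26734 CPM in MIGA2-KO cells and at 43023, 23027 and 20712 CPM in WT cells, and did not pass the test (-0.12 ± 0.24). The groups were separate for mt-Cytb, and for mt-Co1 the MIGA2-KO libraries lay between WT replicate 1 and the other WT libraries. mt-Nd4 and mt-Nd6 fell by 0.88 ± 0.13 and 0.75 ± 0.21 on the log2 scale, and mt-Nd6 did not pass with offsets for GC content and length (-0.35). Over all mitochondrially encoded genes the share of counts was 8.08 ± 0.608% in MIGA2-KO cells and 9.23 ± 2.92% in WT cells (SD, n = 3 each, exact two-sided permutation p = 0.8, the smallest possible being 0.1). The difference of -1.14 percentage points was 0.518 without WT replicate 1, and 1 mRNA of the list was then called higher.

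Genes of mitochondrial dynamics and organelle contacts, the machinery MIGA2 belongs to, showed no common direction, with 7 of 28 higher, 7 lower and a median of 0.04. Osbpl8, which exchanges phosphatidylserine at contacts of the endoplasmic reticulum, was at 67.3, 79.6 and 80.6 CPM in MIGA2-KO cells and at 17.3, 10.6 and 10.7 CPM in WT cells (2.56 ± 0.26, adjusted p = 2.32e-06). Pacs2, which sorts proteins at contacts of mitochondria and endoplasmic reticulum, was at 79.2, 100 and 96.1 CPM in MIGA2-KO cells and at 39.3, 36.2 and 43.8 CPM in WT cells (1.21 ± 0.12). Rmdn3, the tether PTPIP51 of the outer mitochondrial membrane, was at 46.8, 41.2 and 38.1 CPM in MIGA2-KO cells and at 76.1, 74.6 and 77.3 CPM in WT cells (-0.85 ± 0.11). All were separate between groups. Oma1, a protease that cleaves OPA1, fell by 1.26 ± 0.13 on the log2 scale. The VAP genes Vapa and Vapb, whose products bind MIGA2, had log2 fold changes of -0.04 ± 0.12 and 0.01 ± 0.10, and the fusion genes Mfn1, Mfn2 and Opa1 had 0.07, -0.21 and 0.14, none past the test. The counts depended on settings and libraries, with 11 higher without WT replicate 1, and 4 higher and 14 lower with offsets for GC content and length.

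Of 18 phospholipid and cardiolipin genes, 9 were lower and 4 higher, with a median of -0.23. Lpcat3, which inserts polyunsaturated chains into phosphatidylcholine, was at 222, 155 and 149 CPM in MIGA2-KO cells and at 529, 597 and 631 CPM in WT cells (-1.74 ± 0.13). Pcyt2, of the ethanolamine branch, fell by 1.38 ± 0.18 on the log2 scale, and Pcyt1a, the choline counterpart, rose by 0.87 ± 0.12. Cds2, which makes CDP-diacylglycerol, was at 128, 143 and 145 CPM in MIGA2-KO cells and at 71.5, 67.8 and 71.7 CPM in WT cells (0.98 ± 0.09, and 0.34 with offsets for GC content and length). The cardiolipin genes Crls1, Pgs1 and Taz did not pass the test (-0.23, -0.22 and -0.24). Higher members numbered 2 without WT replicate 2 and 2 with offsets for GC content and length.

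Of 31 peroxisomal genes 19 fell and 5 rose, with a median of -0.60. Gnpat, which starts ether lipid synthesis, was at 159, 110 and 103 CPM in MIGA2-KO cells and at 428, 415 and 416 CPM in WT cells (-1.75 ± 0.13). Scp2 and Hsd17b4, of peroxisomal oxidation, fell by 1.29 ± 0.10 and 1.04 ± 0.09 on the log2 scale, and Pex10, a peroxin, by 1.66 ± 0.15. Agps and Far1, which act with Gnpat on ether lipids, went the other way, with increases of 0.93 ± 0.15 and 1.13 ± 0.18. Thus 3 enzymes of 1 short pathway were called in opposite directions.

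Degradation of branched-chain amino acids, known to supply carbon for fatty acids in adipocytes, fell in 19 of 21 genes and rose in 0, with a median of -1.09. Bcat2, the mitochondrial transaminase that starts it, was at 182, 154 and 143 CPM in MIGA2-KO cells and at 1128, 1650 and 1916 CPM in WT cells (log2 fold change -3.29 ± 0.21, adjusted p = 3.21e-08). Bckdhb, a subunit of the dehydrogenase of the next step, was at 31.5, 25.2 and 24.0 CPM in MIGA2-KO cells and at 110, 125 and 123 CPM in WT cells (-2.15 ± 0.11). Both were separate between groups. Hibadh and Auh, further along, fell by 1.41 ± 0.08 and 1.57 ± 0.11 on the log2 scale. The cytosolic transaminase Bcat1 did not pass the test, at 8.78, 0.906 and 1.74 CPM in MIGA2-KO cells and 1.54, 1.75 and 1.26 CPM in WT cells, with the library labelled MIGA2-KO replicate 1 above the rest. Without MIGA2-KO replicate 2 or MIGA2-KO replicate 3, 1 gene of the list was higher.

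Glycolysis genes fell in 15 of 17 cases and rose in 1, with a median of -1.49. Hk2, the hexokinase regulated by insulin, was at 86.8, 64.9 and 63.3 CPM in MIGA2-KO cells and at 265, 233 and 219 CPM in WT cells (-1.74 ± 0.13), while Hk1, the isoform found in most cells, was at 86.3, 126 and 118 CPM in MIGA2-KO cells and at 55.8, 60.7 and 65.8 CPM in WT cells (0.86 ± 0.13). Both hexokinases were separate between groups, in opposite directions. Ldha, lactate dehydrogenase A, was at 711, 397 and 386 CPM in MIGA2-KO cells and at 1977, 2446 and 2385 CPM in WT cells (-2.19 ± 0.20). Ldhb and Pgk1 fell by 1.81 ± 0.16 and 1.61 ± 0.13 on the log2 scale. Gapdh, often taken as a constant reference, fell by 1.66 ± 0.16.

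Insulin signalling genes leaned upwards, with 9 of 19 higher, 4 lower and a median of 0.62. Irs1, the docking protein of the insulin receptor, was at 125, 142 and 141 CPM in MIGA2-KO cells and at 88.8, 54.0 and 51.2 CPM in WT cells (1.07 ± 0.20, and 0.39 with offsets for GC content and length). Akt1 was at 336, 513 and 483 CPM in MIGA2-KO cells and at 203, 214 and 275 CPM in WT cells (0.94 ± 0.16), whereas Akt2, the isoform tied to glucose uptake, did not pass (-0.11 ± 0.08). Insr, the receptor, fell by 0.58 ± 0.20 on the log2 scale, and Tbc1d1 rose by 0.87 ± 0.15. With offsets for GC content and length 5 were higher and 7 lower, and Pik3ca, the catalytic subunit of phosphoinositide 3-kinase, went to 0.05 against 0.94 ± 0.13. Lower members numbered 1 without MIGA2-KO replicate 2, MIGA2-KO replicate 3 or WT replicate 1, and 2 without WT replicate 3.

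Thermogenic genes were lower in 6 of 10 cases and higher in 1, with a median of -1.64, and Ucp1 and Prdm16 did not pass the filter on low counts. Cox8b, a subunit of complex IV found in brown fat and muscle, was at 30.3, 4.04 and 4.62 CPM in MIGA2-KO cells and at 44.8, 87.4 and 113 CPM in WT cells (-2.66 ± 0.61). The library labelled MIGA2-KO replicate 1 lay between the groups, and without it the log2 fold change was -4.23. Cidea behaved likewise, at 13.3, 0 and 0.0871 CPM in MIGA2-KO cells and 41.7, 55.5 and 58.5 CPM in WT cells, so its log2 fold change of -3.55 ± 0.87 rests on how that library is counted. Without that library, or without WT replicate 1, 2 genes of the list were higher. Ppargc1a, the coactivator of mitochondrial biogenesis, rose, at 9.65, 11.0 and 9.93 CPM in MIGA2-KO cells and 2.17, 1.07 and 1.16 CPM in WT cells (2.78 ± 0.35, adjusted p = 1.59e-05). Esrra, the nuclear receptor it works with, fell by 1.19 ± 0.21 on the log2 scale.

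Stress programmes were mixed. Of 22 genes of the unfolded protein response 10 fell and 6 rose, with a median of -0.21. Xbp1 was at 256, 196 and 211 CPM in MIGA2-KO cells and at 479, 494 and 509 CPM in WT cells (-1.16 ± 0.11), and Ern1, the sensor IRE1 that splices its mRNA, was at 28.5, 26.0 and 25.9 CPM in MIGA2-KO cells and at 12.1, 6.63 and 8.06 CPM in WT cells (1.58 ± 0.22). Sensor and target thus differed in opposite directions. The chaperone Calr fell by 0.89 ± 0.11 on the log2 scale, Pdia6 by 0.85 ± 0.11 and Syvn1, of ER-associated degradation, by 0.99 ± 0.13. Hspa5, the chaperone BiP, did not pass with all libraries (-0.26) and passed without the library labelled MIGA2-KO replicate 1 (-0.50).

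In the integrated stress response, which ATF4 mediates, 11 of 22 genes fell and 1 rose, with a median of -0.69. Mthfd2, a mitochondrial folate enzyme, was at 60.9, 35.1 and 35.1 CPM in MIGA2-KO cells and at 347, 355 and 357 CPM in WT cells (-3.02 ± 0.17, adjusted p = 9.21e-09). Slc7a5, an amino acid transporter, fell by 2.20 ± 0.23 on the log2 scale, Psat1, of serine synthesis, by 1.67 ± 0.16 and Cebpg by 0.76 ± 0.10. Without the library labelled MIGA2-KO replicate 1, 15 of the list were lower and 0 higher, and without WT replicate 2 also 0 were higher. In that library some members lay above both groups, as Trib3, an ATF4 target, at 106, 16.7 and 21.0 CPM in MIGA2-KO cells and 39.2, 54.3 and 51.4 CPM in WT cells. Trib3 did not pass with it (-0.02) and passed as lower without it (-1.35). Atf4 itself was at 237, 162 and 159 CPM in MIGA2-KO cells and 205, 243 and 225 CPM in WT cells, and its call depended on that library in the same way (-0.27, and -0.47 without it).

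Of 20 antioxidant genes 11 fell and 5 rose, with a median of -0.49. The mitochondrial peroxiredoxin Prdx3 was at 144, 143 and 150 CPM in MIGA2-KO cells and at 319, 335 and 314 CPM in WT cells (-1.15 ± 0.09), and the superoxide dismutases Sod1 and Sod2 fell by 1.75 ± 0.24 and 0.85 ± 0.12 on the log2 scale. Gsta3, a glutathione transferase, fell by 1.80 ± 0.23, and the related Gsta4 rose by 1.06 ± 0.19. Among 13 targets of p53, 4 rose and 3 fell, with a median of -0.02. Cdkn1a, the cell cycle inhibitor p21, was at 172, 255 and 251 CPM in MIGA2-KO cells and at 456, 530 and 532 CPM in WT cells (-1.16 ± 0.14), while Eda2r rose by 1.75 ± 0.32 and Sesn1 by 0.68 ± 0.14. Zmat3 rose by 0.58 ± 0.11, and went to -0.10 with offsets for GC content and length.

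Matrix genes were higher in MIGA2-KO cells, 22 of 36 against 5 that fell, with a median of 0.70. Their summed level was 67114, 98834 and 93059 CPM in MIGA2-KO cells and 55256, 52034 and 52388 CPM in WT cells. Col1a1, a chain of type I collagen, was at 3598, 7690 and 6942 CPM in MIGA2-KO cells and at 1405, 1485 and 1670 CPM in WT cells (2.00 ± 0.23). Postn, the matricellular protein periostin, was at 2037, 2783 and 2900 CPM in MIGA2-KO cells and at 714, 553 and 509 CPM in WT cells (2.12 ± 0.16, adjusted p = 1.67e-07). Mmp14, the membrane collagenase, was at 1205, 1646 and 1581 CPM in MIGA2-KO cells and at 378, 404 and 457 CPM in WT cells (1.84 ± 0.12). All were separate between groups, with the library labelled MIGA2-KO replicate 1 nearest to WT. The protease inhibitors Timp2 and Timp3 rose by 2.06 ± 0.14 and 3.24 ± 0.22 on the log2 scale.

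Not all matrix genes took that direction. Col15a1, a basement membrane collagen, was at 3.04, 0.412 and 0.348 CPM in MIGA2-KO cells and at 21.2, 17.8 and 19.9 CPM in WT cells (-3.96 ± 0.48, and -5.65 without the library labelled MIGA2-KO replicate 1), and Lama4, a laminin chain of the adipocyte basement membrane, was at 156, 120 and 123 CPM in MIGA2-KO cells and at 303, 297 and 303 CPM in WT cells (-1.18 ± 0.11). Both were separate between groups. Col4a1, a chain of type IV collagen, did not pass the test (-0.29). The lower members of the list numbered 3 without MIGA2-KO replicate 2, MIGA2-KO replicate 3 or WT replicate 1, 2 without WT replicate 3, and 8 with offsets for GC content and length.

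Of 16 preadipocyte markers 7 rose and 4 fell, with a median of 0.40. Pdgfrb, a receptor of stromal progenitors, was at 235, 253 and 253 CPM in MIGA2-KO cells and at 84.1, 78.4 and 73.5 CPM in WT cells (1.65 ± 0.09, adjusted p = 9.03e-09). Ptn, the growth factor pleiotrophin, was at 772, 1003 and 974 CPM in MIGA2-KO cells and at 308, 280 and 278 CPM in WT cells (1.67 ± 0.11). Other markers of precursors were lower. Dlk1, the preadipocyte factor that is turned off during differentiation, was at 147, 209 and 202 CPM in MIGA2-KO cells and at 259, 332 and 427 CPM in WT cells (-0.87 ± 0.20). Pi16, a marker of early stromal progenitors, fell by 2.25 ± 0.25 on the log2 scale. Mest, an imprinted gene, had 1 count over the MIGA2-KO libraries and 112 over the WT libraries, and WT was 105 times higher (95% exact interval 18.4 to 4170). The list thus held members called in both directions.

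Of 13 Wnt and TGF-beta ligands and modulators tested, 8 rose and 1 fell, with a median of 0.60. Wnt5a, a ligand of the non-canonical branch, was at 55.9, 84.9 and 82.3 CPM in MIGA2-KO cells and at 31.6, 17.9 and 15.4 CPM in WT cells (1.78 ± 0.27). Sfrp2 and Sfrp5 encode secreted Wnt inhibitors, of which Sfrp2 is made by stromal cells and Sfrp5 by adipocytes. Sfrp2 was at 10.7, 16.6 and 15.1 CPM in MIGA2-KO cells and at 4.25, 3.31 and 3.69 CPM in WT cells (1.91 ± 0.17), and Sfrp5 was at 1.22, 0.577 and 0.348 CPM in MIGA2-KO cells and at 10.5, 20.3 and 20.3 CPM in WT cells (-4.56 ± 0.39, and -5.16 without the library labelled MIGA2-KO replicate 1). The inhibitors were separate between groups in opposite directions. Tgfb3 rose by 0.72 ± 0.11 on the log2 scale. Without that library 2 of the list fell.

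Of 17 contractile genes 8 rose and 1 fell, with a median of 0.39, and the calls changed with the library labelled MIGA2-KO replicate 1. Without it, 8 rose and 7 fell, and the median was -0.12, while without WT replicate 1 the list held 2 that fell. Acta2, the smooth muscle actin of myofibroblasts, was at 53.9, 5.44 and 6.27 CPM in MIGA2-KO cells and at 12.6, 14.0 and 24.8 CPM in WT cells. That library lay above all WT libraries and the other MIGA2-KO libraries below them, and Acta2 passed the test, as lower, without it (0.35, and -1.54 without it). Tagln, a smooth muscle actin-binding protein, did the same (0.39, and -2.46 without it). Myh9, non-muscle myosin, was at 355, 513 and 462 CPM in MIGA2-KO cells and at 151, 135 and 166 CPM in WT cells (1.56 ± 0.16), and Actn1 and Tpm1 rose by 1.45 ± 0.20 and 0.83 ± 0.10 on the log2 scale. Flna, filamin A, rose by 0.79 ± 0.09 and did not pass with offsets for GC content and length (0.17).

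Interferon-response genes were higher in 18 of 33 cases and lower in 4, with a median of 1.23, or 1.17 over the 30 genes with a ratio when genes without a count in WT stand at their bound. Their summed level overlapped between the groups, at 339, 387 and 401 CPM in MIGA2-KO cells and 354, 378 and 369 CPM in WT cells. These genes are induced by the factor ISGF3, which interferon signalling activates, and many encode antiviral proteins. Ifi47, an interferon-inducible GTPase, was at 5.48, 7.25 and 9.32 CPM in MIGA2-KO cells and at 0.452, 1.17 and 0.971 CPM in WT cells (3.09 ± 0.28, adjusted p = 6.68e-07). Ifit3 was at 3.48, 3.71 and 4.27 CPM in MIGA2-KO cells and at 0.181, 0.487 and 0.194 CPM in WT cells (3.70 ± 0.37, adjusted p = 1.51e-06). Without WT replicate 2 its log2 fold change was 4.30. Ifit1 had 63 counts over the MIGA2-KO libraries and 2 over the WT libraries, a ratio of 33.7 (95% exact interval 8.95 to 284). Ifit3b had 88 counts in MIGA2-KO and 1 in WT, a ratio of 94.2 (16.5 to 3760). The WT count came from replicate 2. Ifit3 and Ifit3b are near-copies that can share reads, so the split between them is uncertain. Ifi44 had 15 counts in MIGA2-KO and 0 in WT, at least 5.35-fold higher when 3 counts in all WT libraries together are taken as the floor. Mx1, Oas3 and Rsad2 were at or under that floor in both groups.

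Members of the list went in both directions. Stat2 was at 34.3, 48.0 and 46.9 CPM in MIGA2-KO cells and at 20.4, 16.0 and 11.7 CPM in WT cells (1.42 ± 0.17). Usp18, which dampens interferon signalling, was at 1.13, 1.24 and 1.39 CPM in MIGA2-KO cells and at 8.86, 6.24 and 6.31 CPM in WT cells (-2.50 ± 0.27). Irf7 fell by 1.31 ± 0.26 on the log2 scale, and Isg15 did not pass the test (0.00). At day 0, 30 of the 33 genes were higher in MIGA2-KO cells and 0 lower, against 16.1% and 17.7% of all genes. These counts carry the limit given above for the WT day 0 libraries. Ifit1 and Ifit3 then averaged 166 and 225 CPM in MIGA2-KO cells and 64.1 and 110 CPM in WT cells. At day 6 they averaged 1.79 and 3.82 CPM in MIGA2-KO cells.

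Promoter windows of 3 interferon genes, of the same length and source, are shown because these genes rose together and carry the element that ISGF3 is known to bind. Capitals mark 2 copies of GAAA with 2 bases of any kind (NN) between them, read as 2 copies of TTTC where the match was on the other strand. Ifit1 lies at chr19:34640639-34640938, Ifit3 at chr19:34583279-34583578 and Gbp3 at chr3:142559794-142560093, all on the plus strand.
Ifit1: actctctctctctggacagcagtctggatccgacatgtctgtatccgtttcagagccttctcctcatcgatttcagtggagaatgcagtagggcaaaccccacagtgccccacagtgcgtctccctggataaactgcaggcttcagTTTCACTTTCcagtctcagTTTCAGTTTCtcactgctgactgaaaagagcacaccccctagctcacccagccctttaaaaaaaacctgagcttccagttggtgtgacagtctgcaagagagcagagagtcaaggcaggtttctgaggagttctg
Ifit3: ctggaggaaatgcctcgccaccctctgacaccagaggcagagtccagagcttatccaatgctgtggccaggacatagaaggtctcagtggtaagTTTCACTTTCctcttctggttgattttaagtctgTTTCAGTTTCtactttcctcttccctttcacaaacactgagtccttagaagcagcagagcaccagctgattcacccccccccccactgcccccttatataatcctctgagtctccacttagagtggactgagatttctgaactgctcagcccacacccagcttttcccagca
Gbp3: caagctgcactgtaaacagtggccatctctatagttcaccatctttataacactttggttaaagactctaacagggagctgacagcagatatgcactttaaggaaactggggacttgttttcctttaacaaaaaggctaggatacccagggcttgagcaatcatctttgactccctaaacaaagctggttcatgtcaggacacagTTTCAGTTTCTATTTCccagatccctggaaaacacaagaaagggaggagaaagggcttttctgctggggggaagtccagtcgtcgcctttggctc
Each window held 2 matches, and those of Gbp3 overlapped. Gbp3 had 2 windows, of which the first that held a match is shown. Here too a match describes the sequence and shows no binding. The motif, on either strand, was found in 15 of 27 interferon genes with a window (55.6%), against 1079 of 27025 genes (3.99%) and 1 of 18 cholesterol genes (5.56%).

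Of 18 chemokine and acute phase genes 8 rose and 6 fell, where 29.2% of all genes rose and 31.5% fell. The share that fell was thus near that of genes at large. The genes called differed by kind, a grouping within the list that was not tested. The chemokines called were all higher: Cxcl12, which retains blood cell precursors in stroma, was at 1422, 1700 and 1681 CPM in MIGA2-KO cells and at 392, 307 and 321 CPM in WT cells (2.23 ± 0.12, adjusted p = 7.55e-09). Ccl2, which draws monocytes, was at 39.6, 8.65 and 8.10 CPM in MIGA2-KO cells and at 1.90, 2.73 and 3.30 CPM in WT cells (2.83 ± 0.53, and 1.68 without the library labelled MIGA2-KO replicate 1). Cxcl10, an interferon-inducible chemokine, had 18 counts in MIGA2-KO and 0 in WT, at least 6.42-fold higher. That library was far above the rest for Ccl2, and Cxcl1 (1.46) did not pass without it (0.37). The acute phase genes called were all lower. Lcn2, the iron-sequestering lipocalin, was at 17.6, 8.07 and 9.06 CPM in MIGA2-KO cells and at 331, 499 and 450 CPM in WT cells (-5.20 ± 0.26, adjusted p = 5.97e-09). Serpina3n, a protease inhibitor, was at 60.9, 62.5 and 64.3 CPM in MIGA2-KO cells and at 197, 176 and 177 CPM in WT cells (-1.55 ± 0.09). The median of the mixed list was 0.54, and without that library it was -0.19 with 7 genes higher and 7 lower.

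Lysosomal genes leaned upwards, with 14 of 25 higher, 5 lower and a median of 0.33. Over all settings the list held 10 to 15 higher and 3 to 7 lower genes, with 10 and 6 without WT replicate 1. Without replicate 1 of both groups it held 11 and 7, where 31.7% of all genes were higher and 33.3% lower. Psap, the precursor of the saposins, was at 6128, 8618 and 7953 CPM in MIGA2-KO cells and at 2834, 2931 and 3537 CPM in WT cells (1.29 ± 0.13). Lamp2, a membrane protein of lysosomes, was at 1192, 1461 and 1514 CPM in MIGA2-KO cells and at 429, 260 and 299 CPM in WT cells (2.08 ± 0.21). Hexa, a lysosomal glycosidase subunit, rose by 1.03 ± 0.14 on the log2 scale. Tfeb, the factor that switches lysosomal genes on, fell, at 9.30, 11.0 and 8.53 CPM in MIGA2-KO cells and 15.6, 28.8 and 41.0 CPM in WT cells (-1.56 ± 0.32).

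Of 40 cytosolic ribosomal protein genes 21 fell and 1 rose, with a median of -0.55. Their summed level was 24369, 27487 and 26491 CPM in MIGA2-KO cells and 25737, 41405 and 41141 CPM in WT cells, so WT replicate 1 lay with the MIGA2-KO libraries. Without WT replicate 1, 32 were lower, without WT replicate 2 or 3 there were 12 and 13, and without the library labelled MIGA2-KO replicate 1 there were 14. Rpl32 was at 566, 498 and 473 CPM in MIGA2-KO cells and at 854, 1437 and 1208 CPM in WT cells (-1.19 ± 0.22), and Rpl11 fell by 1.16 ± 0.21 on the log2 scale. With offsets for GC content and length 14 were higher and 7 lower, and Rps6 went to -0.04 against -0.79 ± 0.15, so no direction held for the list.

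Of 34 cell cycle genes 11 rose and 5 fell at day 6, with a median of 0.11, where 29.2% of all genes rose and 31.5% fell. The share that rose was thus near that of genes at large. Rrm1, a ribonucleotide reductase subunit, was at 79.8, 99.0 and 102 CPM in MIGA2-KO cells and at 48.7, 40.7 and 42.1 CPM in WT cells (1.09 ± 0.12). Pcna, the sliding clamp of replication, was at 34.6, 32.5 and 31.4 CPM in MIGA2-KO cells and at 22.5, 20.8 and 19.6 CPM in WT cells (0.65 ± 0.10), and E2f1 rose by 0.74 ± 0.13 on the log2 scale. Ccne1, cyclin E1, was at 7.74, 7.42 and 7.05 CPM in MIGA2-KO cells and at 23.7, 29.1 and 23.6 CPM in WT cells (-1.78 ± 0.16). Mki67, a general proliferation marker, did not pass the test (-0.04). At day 0 the same list held 3 genes that were higher and 25 that were lower in MIGA2-KO cells, where 16.1% of all genes were called higher and 17.7% lower. The limit given above for the WT day 0 libraries holds here too.

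Markers of other cell types were low. Macrophage markers summed to 18.7, 17.3 and 22.8 CPM in MIGA2-KO cells and to 11.8, 15.8 and 9.90 CPM in WT cells, Adgre1, Ptprc and Itgam stayed below the filter, and 2 of 4 tested were higher, Lyz2 (0.68 ± 0.18) and Csf1r (1.50 ± 0.44). Endothelial markers stayed below the filter in all 6 cases. Skeletal muscle markers came from 1 library: Acta1 was at 0.435, 0.412 and 22.6 CPM in MIGA2-KO cells and 1.09, 1.17 and 1.36 CPM in WT cells, and Tnnt3 at 0.0869, 0 and 11.8 CPM in MIGA2-KO cells and 0.271, 0.585 and 0.194 CPM in WT cells. Both were called higher (2.69 and 3.46), and without MIGA2-KO replicate 3 they were at -1.48 and -2.80. Neither passed the test without WT replicate 1, 2 or 3. Of factors of other mesenchymal lineages, Runx2, of bone, was at 21.8, 23.8 and 23.9 CPM in MIGA2-KO cells and at 4.52, 4.78 and 4.37 CPM in WT cells (2.35 ± 0.19), and Sox9, of cartilage, was at 45.5, 65.3 and 61.5 CPM in MIGA2-KO cells and at 17.1, 21.5 and 20.4 CPM in WT cells (1.55 ± 0.15). Their lists did not move with them. Of 3 tested bone markers 1 was higher and 1 lower, with a median of -0.25. Without the library labelled MIGA2-KO replicate 1, 1 was higher and 2 lower. Of 2 tested cartilage markers, the one other than Sox9 did not pass the test (-0.69). The bone markers Sp7, Bglap and Ibsp stayed below the filter, and the enzyme Alpl fell (-1.28 ± 0.42). Alpl was at -2.19 without the library labelled MIGA2-KO replicate 1, and did not pass without MIGA2-KO replicate 2, MIGA2-KO replicate 3 or WT replicate 3 (-0.96, -0.97 and -1.07). Mesothelial and epithelial markers were lower in 4 of 4 cases, and in 3 without the library labelled MIGA2-KO replicate 1, where Krt8, a keratin, did not pass the test (-1.15, adjusted p = 0.104, against -1.55 with all libraries). Krt8 also did not pass without MIGA2-KO replicate 3 or WT replicate 2 (-1.47 and -1.19). It did not pass with offsets for GC content and length (-1.12) or with no filter on low counts (-1.53). Msln, mesothelin, was at 12.9, 12.2 and 11.0 CPM in MIGA2-KO cells and at 49.9, 57.1 and 53.2 CPM in WT cells (-2.15 ± 0.14). The part of these markers in the other results was not tested.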

How the data were processed

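RNA was sequenced as stranded TruSeq libraries, per the labels' protocols, and the authors deposited raw read counts per gene for each library. Per the submitters' processing notes, bcl2fastq 2.19, Trimmomatic, STAR 2.5.4b, featureCounts and edgeR were used with build GRCm38.p5, whereas strand setting and annotation were not given in the sources used here, so a gene and an antisense or overlapping partner cannot be told apart. Counts of 25664 of 25700 identifiers were matched to GENCODE vM21 symbols.

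Genes passing edgeR's filterByExpr (minimum count 10, minimum total 15) were fitted in all 15 libraries with TMM factors and the quasi-likelihood test in edgeR 4.0.16 (R 4.3.3), 1 term per group, with Benjamini-Hochberg adjustment across the 12279 genes and a threshold of 0.05. CPM, the deposited counts scaled to library size, use TMM-adjusted totals, and the standard error is the log2 fold change divided by the root of F. DESeq2 1.42.0, limma 3.58.1 with sample weights, other filters and scalings, offsets for GC content and length, left-out libraries and a replicate block were alternatives. Depth was like in all 6 libraries, and intervals and floors cover counting error only. Named genes were Miga2, Miga1, the 10 largest changes each way among called genes at 5 CPM or more whose groups did not overlap, and up to 4 per list with the smallest p, or 2 where none was called. Other listed genes were named for their roles after their values were seen. The comparison and the gene lists were chosen with earlier results of these data known. Ptpmt1 was not analysed here, and some genes that the rule would name are not reported here.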

Additional observations from a re-analysis of the deposited data

Results flagged for a closer look

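The difference between MIGA2-KO and WT cells was itself different at day 6 and day 0 for 12 of the 20 genes with the largest changes, by the interaction term of the edgeR fit, where 27.2% of all genes passed that test. These 20 genes were chosen for their difference at day 6, which is one part of the term tested, so nothing is read from that share. Among the genes higher in MIGA2-KO cells, the log2 difference at day 6 minus that at day 0 was 2.57 for Akr1c14 (adjusted p = 7.99e-05), 2.56 for Gbp7 (adjusted p = 0.0182), 4.21 for Cxcl5 (adjusted p = 2.08e-07), 3.53 for Thrb (adjusted p = 0.000946) and 2.64 for Gm49358 (adjusted p = 0.0258). It was 2.94 for Ulbp1 (adjusted p = 0.00171), 3.07 for Atp7a (adjusted p = 0.0268) and 1.80 for Mbnl3 (adjusted p = 0.0371). Among the genes lower in MIGA2-KO cells it was -7.15 for Aldh1l1 (adjusted p = 2.43e-05), -6.45 for Hp (adjusted p = 8.11e-06), -8.44 for Retnla (adjusted p = 0.034) and -9.17 for Adora1 (adjusted p = 0.00288). For Atp7a, WT day 0 replicate 1 stood apart, at 2.92 CPM against 32.9 and 41.8 CPM in the other WT day 0 libraries. Folh1, Csn2, Cyp2b10 and Cyp2e1 held no count at day 0 that would allow the term to be estimated.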

How the results depend on the processing

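The number of genes called lay between 5810 with the replicate block and 8910 with limma and sample weights, was 7552 with DESeq2, and ran from 6456 to 8018 with 1 library left out. Same-numbered libraries of MIGA2-KO and WT did not deviate together (r of -0.0527, -0.00819 and -0.0561). With so few libraries, and replicate 1 apart in each group, this cannot show whether same-numbered libraries shared a culture or harvest. Of 149 named genes called, 140 kept their call and direction under each of the 18 alternatives in which they were tested. Most were named for a small p or a large change in these same libraries. The share therefore does not speak for the called genes at large. Among them, Csf1r was tested in 14 and mt-Cytb and mt-Nd4 in 17. Miga2 was at -0.99 with limma and sample weights, at -0.07 with the replicate block and at -1.23 without replicate 1 of both groups, and ran from -1.16 to 1.64 with 1 library left out. With offsets for GC content and length Zmat3 was at -0.10. With 1 library left out Tnnt3 ran from -2.80 to 4.07 and Acta1 from -1.48 to 3.26, both lowest without MIGA2-KO replicate 3. The interaction was called for 20 of the 20 leading genes with limma and sample weights, against 12, and for 8 to 14 with 1 library left out. The cause of these shifts was not tested. Limits are the unknown origin of the replicates, the spread that the library labelled MIGA2-KO replicate 1 and WT replicate 1 each add to their group, and few counts for genes near 0. A further limit is the spread among the WT day 0 libraries, none of which was left out in any fit.

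Counts of listed genes moved by over 1.5 times under these settings. With limma and sample weights the stress response list held 19 lower, the contractile list 8, the ribosomal list 34 and the p53 list 5, and the contact list held 11 higher. With offsets for GC content and length 3 genes of the unfolded protein response, 3 of the integrated stress response and 2 of the p53 list were higher. DESeq2 called 4 contractile genes lower. The fit to the 6 libraries alone called 3 cell cycle genes, 2 matrix genes and 2 insulin genes lower.

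With offsets for GC content and length the fold change of 30 of the 151 named genes moved by over 1.5 times, closer to 0 for 24 of them. Of those called in both fits, Osbpl8 was then at 1.79, Ppargc1a at 2.15 and Postn at 1.37. Rpl32 was at -0.32, Rpl11 at -0.28, Hilpda at -0.77, Mpc1 at -1.04, Ldhb at -1.14, Agpat2 at -1.18, Cox8b at -1.27, Pmvk at -2.27, Krt18 at -2.38, Thrsp at -4.16, Lcn2 at -4.55, Camp at -5.14, Retnla at -5.52 and Hp at -6.11. Sod2 was at -1.46, Hibadh at -2.13, Fasn at -2.72, Csn2 at -8.04, Acta1 at 3.34 and Tnnt3 at 4.26. With limma and sample weights 21 moved by that much, 5 of them closer to 0.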

Other observations

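The genes given here were chosen after their values were seen. Pnpla3, a lipid droplet lipase, was at 7.82, 0.165 and 0.261 CPM in MIGA2-KO cells and at 77.0, 73.0 and 64.5 CPM in WT cells (log2 fold change -4.71 ± 0.71, edgeR adjusted p = 0.000113), and its log2 fold change was -8.33 without the library labelled MIGA2-KO replicate 1. That library lay above the others of its group, and the groups did not overlap. The metallothionein Mt2 was at 62.9, 37.9 and 34.1 CPM in MIGA2-KO cells and at 423, 778 and 893 CPM in WT cells, and Mt1 was at 230, 283 and 259 CPM in MIGA2-KO cells and at 1106, 2270 and 2859 CPM in WT cells.

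Several secreted and surface proteins of stromal cells were higher in MIGA2-KO cells. Aebp1, a matrix protein of fibroblasts, was at 166, 305 and 289 CPM in MIGA2-KO cells and at 20.2, 23.1 and 29.4 CPM in WT cells (3.39 ± 0.21, adjusted p = 2.13e-08). Gpc1, a cell surface proteoglycan, was at 436, 860 and 779 CPM in MIGA2-KO cells and at 105, 112 and 122 CPM in WT cells. Kitl, the ligand of the receptor KIT, was at 384, 536 and 559 CPM in MIGA2-KO cells and at 149, 63.2 and 60.2 CPM in WT cells. In each of these the groups were separate, with the library labelled MIGA2-KO replicate 1 nearest to WT. Igf2, an imprinted growth factor, was lower, at 17.3, 21.5 and 20.5 CPM in MIGA2-KO cells and 96.2, 102 and 98.6 CPM in WT cells (-2.32 ± 0.14).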
